A study of Homo sapiens with 12 samples.

Results

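Translation initiation factor genes were followed in HEK293T cells, a human embryonic kidney cell line, as the 52 protein-coding genes whose symbols begin with EIF1 to EIF6. The genes of the eIF2 kinases, whose symbols begin with EIF2AK, were left out of the set. The 52 genes are among 58735 genes in the count table, and 49 of them had enough counts to be tested. Poly(A)-selected RNA was sequenced from 4 groups of 3 libraries each. The first group received DMSO, the vehicle. CEP, a clickable electrophilic purine with the code name AHL-Pu-1, was given for 1 h to the group named after it. In the 4SU group 4-thiouridine, a uridine analog that cells build into RNA, was given at 100 µM for 16 h, and the CEP+4SU group received both. All cells were wild type. The study describes its RNA-seq replicates as biologically independent and its cell experiments in general as repeated on different days, and which library belongs to which day is not stated. The series design gives CEP at 25 µM, whereas the protocol field gives the same number in mM. The protocol on all 12 labels also describes crosslinking with ultraviolet light before CEP was added, and whether the groups that received no 4SU were also exposed to it is not stated. The libraries were made to ask whether these treatments alter transcript levels.

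Initiation brings the small ribosomal subunit, charged with initiator tRNA by eIF2, to the capped end of an mRNA and moves it to a start codon. The cap is bound by eIF4F, whose subunits are the cap-binding protein eIF4E, the scaffold eIF4G and the RNA helicase eIF4A, while eIF3 holds the small subunit together with its partners. Cells adjust the process mostly through the proteins themselves, for example by phosphorylation of eIF2 or by release of eIF4E from its binding proteins, and mRNA levels of the factors are one layer below that.

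The 12 libraries held 16569114 to 24644734 counts, and the 52 members took 1.23% to 1.32% of them. The cell line's markers were present in every library, with VIM at 40.5 to 50.3 FPKM (fragments scaled to gene length and library size), LIN28B at 19.6 to 28.8, KRT18 at 16.6 to 20.5, KRT8 at 9.65 to 14.1 and PAX2 at 0.832 to 1.46. Markers of blood, liver and lung were near 0, with ALB at most 0.078 FPKM, SFTPC at most 0.033, PTPRC at most 0.013 and CD3E at 0. CEP replicate 2 and CEP+4SU replicate 2 stood apart, with 22230 and 22627 genes detected against at least 24376 in the other 10 libraries. Values without them, where computed, are given beside the results they move.

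FPKM, which divides by gene length to compare levels between genes, spanned more than 2 orders of magnitude in DMSO. The length used is that of all annotated exon bases of a gene, which need not all be in the expressed mRNA. The order of genes by FPKM therefore depends on the annotation too. EIF5A, which encodes a factor that helps ribosomes through difficult peptide bonds, was highest with 325 ± 15.4 FPKM (SD, n = 3 here and below). EIF3I, a WD-repeat subunit of eIF3, followed with 278 ± 24.7 FPKM. The next levels were 167 ± 5.10 FPKM for EIF4H, a cofactor of the eIF4A helicase, 146 ± 2.45 for EIF2S3, the gamma subunit of eIF2, and 141 ± 2.99 for EIF4G2, a relative of eIF4G that does not bind eIF4E. The intervals of 1 SD of EIF2S3 and EIF4G2 overlap, so their order is not set by these data.

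Within each complex the levels differed widely. Among the genes grouped here under start-codon selection, EIF1, the gatekeeper of start-site recognition, was highest with 132 ± 4.50 FPKM and EIF1AD lowest with 12.6 ± 0.623. Whether EIF1AD acts in start-codon selection was not tested. In the group of eIF2 and other tRNA carriers, the subunits encoded by EIF2S3, EIF2S2 and EIF2S1 stood at 146, 87.8 and 25.4 FPKM, and EIF2S3B, a copy of EIF2S3 on another chromosome, was lowest with 4.75 ± 0.478, a level that is uncertain because the copies share sequence. The 5 subunits of eIF2B, which reloads eIF2 with GTP, ranged from EIF2B1 at 31.3 ± 0.899 to EIF2B5 at 9.23 ± 0.393 FPKM.

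For eIF3, 12 of 14 genes lay between 24.6 FPKM (EIF3F) and 278 FPKM (EIF3I). The lengths that enter these values differ, with 9431 exon bases for EIF3F and 1725 for EIF3I. The other two, EIF3C with 5.49 ± 1.16 and EIF3CL with 2.14 ± 0.091, are near-identical copies that share reads, so their levels are uncertain. The eIF4E-binding proteins ranged from EIF4EBP1, a repressor of cap binding that mTOR controls, with 105 ± 5.42 FPKM to EIF4ENIF1, a transporter of eIF4E, with 7.72 ± 0.169. In the last group, with the subunit-joining factor EIF5B at 38.4 ± 3.27 and the ribosome anti-association factor EIF6 at 48.2 ± 1.61 FPKM, EIF5A2 was lowest with 2.83 ± 0.479. EIF5AL1, an intronless copy of EIF5A, had 6.46 ± 1.69 FPKM and is uncertain for the same reason.

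Among the genes of eIF4F, eIF4A helicases and cofactors, EIF4A1 was lowest at 1.56 ± 0.340 FPKM while its paralog EIF4A2 had 31.3 ± 0.822. Only 127 to 254 reads per library were assigned to EIF4A1. The gene (GRCh38, chr17:7572706-7579005, plus strand) shares 48.6% of its exon bases with same-strand gene models such as AC016876.2, which held 0 to 10 counts, and whether reads were lost to such overlaps was not tested. EIF4A1 is therefore given as uncertain. Of the 3 genes that were not tested, EIF1AY had 0 counts throughout, EIF4E1B had 0 to 8 per library, and EIF4EBP3, which shares 73.4% of its exon bases with ANKHD1-EIF4EBP3, also had 0 to 8.

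**Figure D1:**
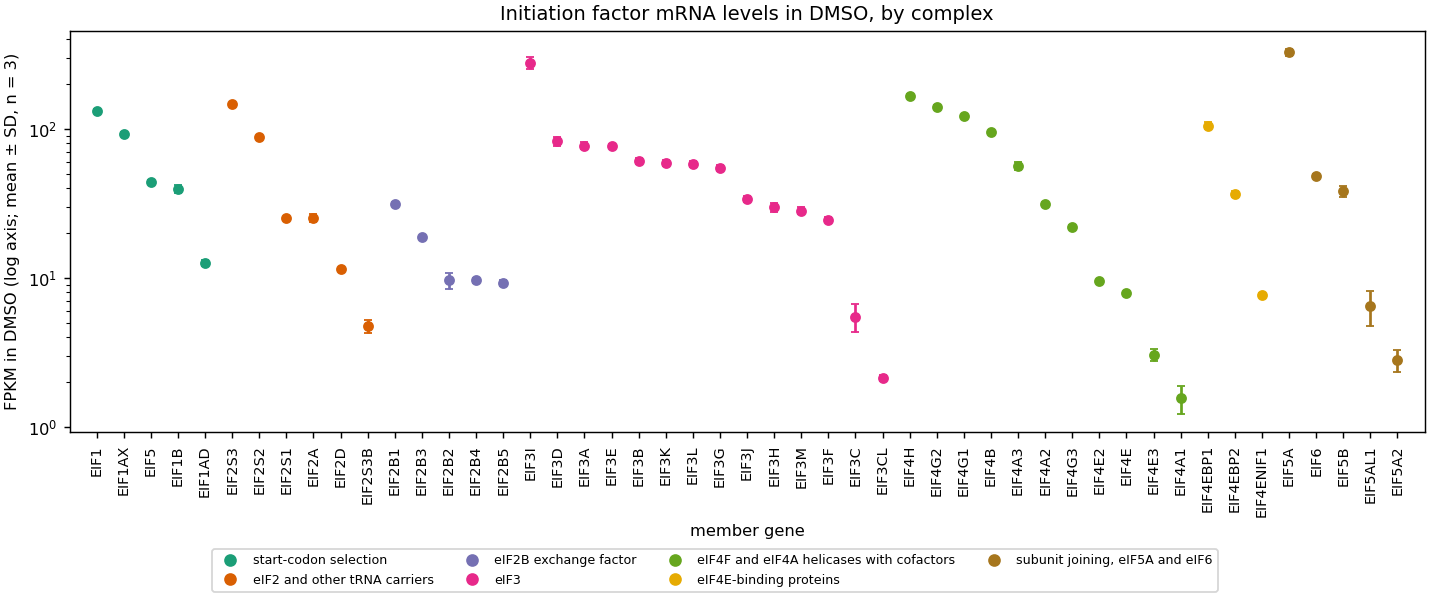
Mean FPKM in the 3 DMSO libraries on a log axis for each of the 49 tested initiation factor genes, with bars for 1 SD, ordered by level within each complex and coloured by complex. EIF5A at 325 and EIF3I at 278 FPKM lie at the top, and EIF4A1 at 1.56 and EIF3CL at 2.14 at the bottom.

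Many mRNAs of the translation apparatus begin with a C followed by a run of pyrimidines, the 5′ terminal oligopyrimidine (TOP) motif, which links their translation to mTOR and the RNA-binding protein LARP1. Annotated starts were read from a supplied set of RefSeq starts (GRCh38.p14), which matched 44 of the 52 members by symbol with 60 starts. EIF2S2, EIF3A, EIF3CL, EIF3E, EIF3G, EIF3H, EIF3L and EIF4EBP1 had no entry in that set, so whether their starts carry the run is not known here. Whether RefSeq itself holds starts for them was not checked. A start was counted when its first base was C and at least 4 bases that were each C or T followed, on the transcript's strand. This was so for 10 of the 44 members (22.7%), against 5.14% of the 27305 genes in the same set. Shown here are 5 members with such a start, EIF4A2 among them, and EIF5, whose 2 annotated starts lack it, since EIF4A2 and EIF5 are the genes called with both compounds. Each runs from 15 bases before the start to 15 bases from it, 5′ to 3′, with the pyrimidine run in capitals.
EIF4A2 (chr3:186783562-186783591, plus strand): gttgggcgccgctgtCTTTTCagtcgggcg
EIF3F (chr11:7987322-7987351, plus strand): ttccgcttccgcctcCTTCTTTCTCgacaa
EIF3M (chr11:32583816-32583845, plus strand): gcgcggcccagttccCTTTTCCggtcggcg
EIF3D (chr22:36529152-36529181, minus strand): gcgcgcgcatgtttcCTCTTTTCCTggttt
EIF2S3 (chrX:24054941-24054970, plus strand): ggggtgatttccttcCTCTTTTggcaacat
EIF5, start 1 (chr14:103334222-103334251, plus strand): gcggcggcgttgttcagtcagagcgagaac
EIF5, start 2 (chr14:103334873-103334902, plus strand): atcccggcacccctcggccgtgtgtcgctt
The other 5 members with the run were EIF2A, EIF2D, EIF2S3B, EIF3K and EIF4B. These starts are annotations, not starts measured in these cells.

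When CEP alone was compared with DMSO, no initiation factor gene passed the test. By edgeR's quasi-likelihood test with Benjamini-Hochberg adjustment over 17729 genes and a threshold of 0.05, 0 of 49 members were called, against 0.0564% of all genes tested. At an unadjusted p under 0.05 there were 11 members (22.4%), 8 higher and 3 lower, against 18.6% of all genes. DESeq2 called 1 member, EIF3L (2.04%), and limma on log2 FPKM called 0. DESeq2 gave an adjusted p to only 9610 genes here and called 253 of them (2.63%). Its shares over genes refer, here and below, to genes with an adjusted p, whose number differs between comparisons. The members' share is of all 49, so the bases are unlike. The median log2 fold change of the members was 0.062 and that of all genes −0.005, with 31 of 49 members above 0 (63.3%) against 49.4% of all genes.

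The members with the smallest p-values in this comparison were EIF3L, EIF5 and EIF3E. EIF3L, a peripheral eIF3 subunit, had 267, 248 and 244 CPM (counts scaled to library size, with TMM factors) in DMSO and 287, 305 and 296 in CEP. All 3 CEP libraries lay above the 3 DMSO libraries, and the log2 fold change was 0.23 (SE 0.068, adjusted p = 0.173, edgeR). EIF3E, the eIF3 subunit also known from a viral integration site in mice, had 481, 453 and 463 CPM in DMSO and 507, 561 and 593 in CEP, with a log2 fold change of 0.25 (SE 0.085, adjusted p = 0.187, edgeR). Its groups did not overlap either.

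EIF5 encodes the protein that makes eIF2 hydrolyse its GTP at the start codon. It had 378, 371 and 389 CPM in DMSO and 470, 470 and 425 in CEP, with a log2 fold change of 0.26 (SE 0.080, adjusted p = 0.173, edgeR). The groups did not overlap. Such a gap was found in the upward direction for 14 of 49 members, against 13.5% of all genes. In the downward direction it was found for 5 of 49 members, against 10.1% of all genes. The largest negative values were −0.35 for EIF6 (unadjusted p = 0.0118, adjusted p = 0.191 by edgeR) and −0.35 for EIF3C (adjusted p = 0.578), neither past the threshold. Without CEP replicate 2 they were −0.19 for EIF6 and −0.17 for EIF3C. Leaving out CEP replicate 1 gave 4 called members (EIF3E, EIF3G, EIF3L and EIF4E3, with adjusted p-values of 0.0413 to 0.0490 by edgeR) against 6.61% of all genes, and leaving out any other library gave 0.

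When 4SU alone was compared with DMSO, again 0 of 49 members were called by edgeR, against 0.00564% of all genes. At an unadjusted p under 0.05 there were 4 members (8.16%), 2 in each direction, against 6.50% of all genes, and both DESeq2 and limma called 0. The median of the members was −0.05 and that of all genes −0.007. Of 49 members, 16 had a value above 0 (32.7%), against 48.2% of all genes. All 4SU libraries lay above all DMSO libraries for 3 of 49 members, against 7.58% of all genes. They lay below all DMSO libraries for 10 of 49 members, against 10.3%.

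EIF4A2 and EIF3B were among the smallest p-values of this comparison. EIF4A2 had 193, 198 and 189 CPM in DMSO and 231, 247 and 221 in 4SU. The groups did not overlap, with a log2 fold change of 0.27 (SE 0.085, adjusted p = 0.643, edgeR). EIF3B, a scaffold subunit of eIF3, had 574, 533 and 550 CPM in DMSO and 501, 478 and 473 in 4SU, and a log2 fold change of −0.19 (SE 0.067, adjusted p = 0.684, edgeR). All its 4SU libraries lay below DMSO. EIF3CL, described with the averaged effect of 4SU, had the smallest p (log2 fold change 2.72, SE 0.59, adjusted p = 0.284 by edgeR). It passed, with an adjusted p of 0.0265, when the 2 libraries of few detected genes were left out.

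In cells that received both compounds, 2 of 49 members rose and none fell against DMSO, 4.08% of the members against 1.64% of all genes. They were EIF5 and EIF4A2. At an unadjusted p under 0.05 there were 13 members (26.5%), 6 higher and 7 lower, against 21.4% of all genes. DESeq2 called 4 members (EIF3B, EIF4A2, EIF5 and EIF5A; 8.16%), against 1164 of the 10945 genes with an adjusted p (10.6%), and limma 0. The medians were 0.053 for the members and 0.0 for all genes.

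EIF5 (GRCh38, chr14:103333544-103345025, plus strand) had 460, 510 and 461 CPM in CEP+4SU against 378, 371 and 389 in DMSO. All 3 treated libraries were above DMSO, and replicate 2 was the highest. The log2 fold change was 0.33 (SE 0.080, adjusted p = 0.0456, edgeR). Without CEP+4SU replicate 2 the log2 value was 0.28 with an adjusted p of 0.182, and without both libraries of few detected genes it was 0.28 with an adjusted p of 0.0662. The adjusted p also lay above the threshold without DMSO replicate 1, 2 or 3 (0.178, 0.146 and 0.134), without 4SU replicate 2 or 3 (0.055 and 0.078), and without CEP+4SU replicate 3 (0.0861). The direction was the same in each.

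EIF4A2 (GRCh38, chr3:186783205-186789900, plus strand) encodes a paralog of the eIF4F helicase. It had 230, 281 and 226 CPM in CEP+4SU against 193, 198 and 189 in DMSO, so replicate 2 was again the highest and the groups did not overlap. Of its exon bases, 17.9% are shared with other gene models, small nucleolar RNA genes among them. The log2 fold change was 0.34 (SE 0.085, adjusted p = 0.0492, edgeR). Without CEP+4SU replicate 2 it was 0.24 with an adjusted p of 0.244, and without both libraries of few detected genes 0.24 with an adjusted p of 0.115. The adjusted p was above the threshold as well without DMSO replicate 1, 2 or 3 (0.184, 0.139 and 0.163), without 4SU replicate 1, 2 or 3 (0.0596, 0.0679 and 0.0785), and without CEP+4SU replicate 3 (0.0799). With these 2 libraries of few detected genes left out, 0 members were called in this comparison, against 0.863% of all genes.

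The other members named by p-value or level did not pass here. EIF3CL had 43.4, 36.3 and 6.83 CPM in CEP+4SU against 6.64, 6.40 and 7.01 in DMSO, with a log2 fold change of 2.11 (SE 0.59, adjusted p = 0.0691, edgeR), and it passed without 4SU replicate 1 or 3 (0.0473 and 0.0498). EIF5A had 800, 673 and 757 CPM against 962, 876 and 933, a log2 value of −0.31. It did not pass with all 12 libraries, and its adjusted p was 0.0426 without CEP replicate 1, 0.0207 without CEP replicate 2 and 0.0423 without CEP+4SU replicate 1. All CEP+4SU libraries lay above DMSO for 9 of 49 members, against 14.1% of all genes. They lay below DMSO for 9 of 49 members, against 14.6%.

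**Figure D2:**
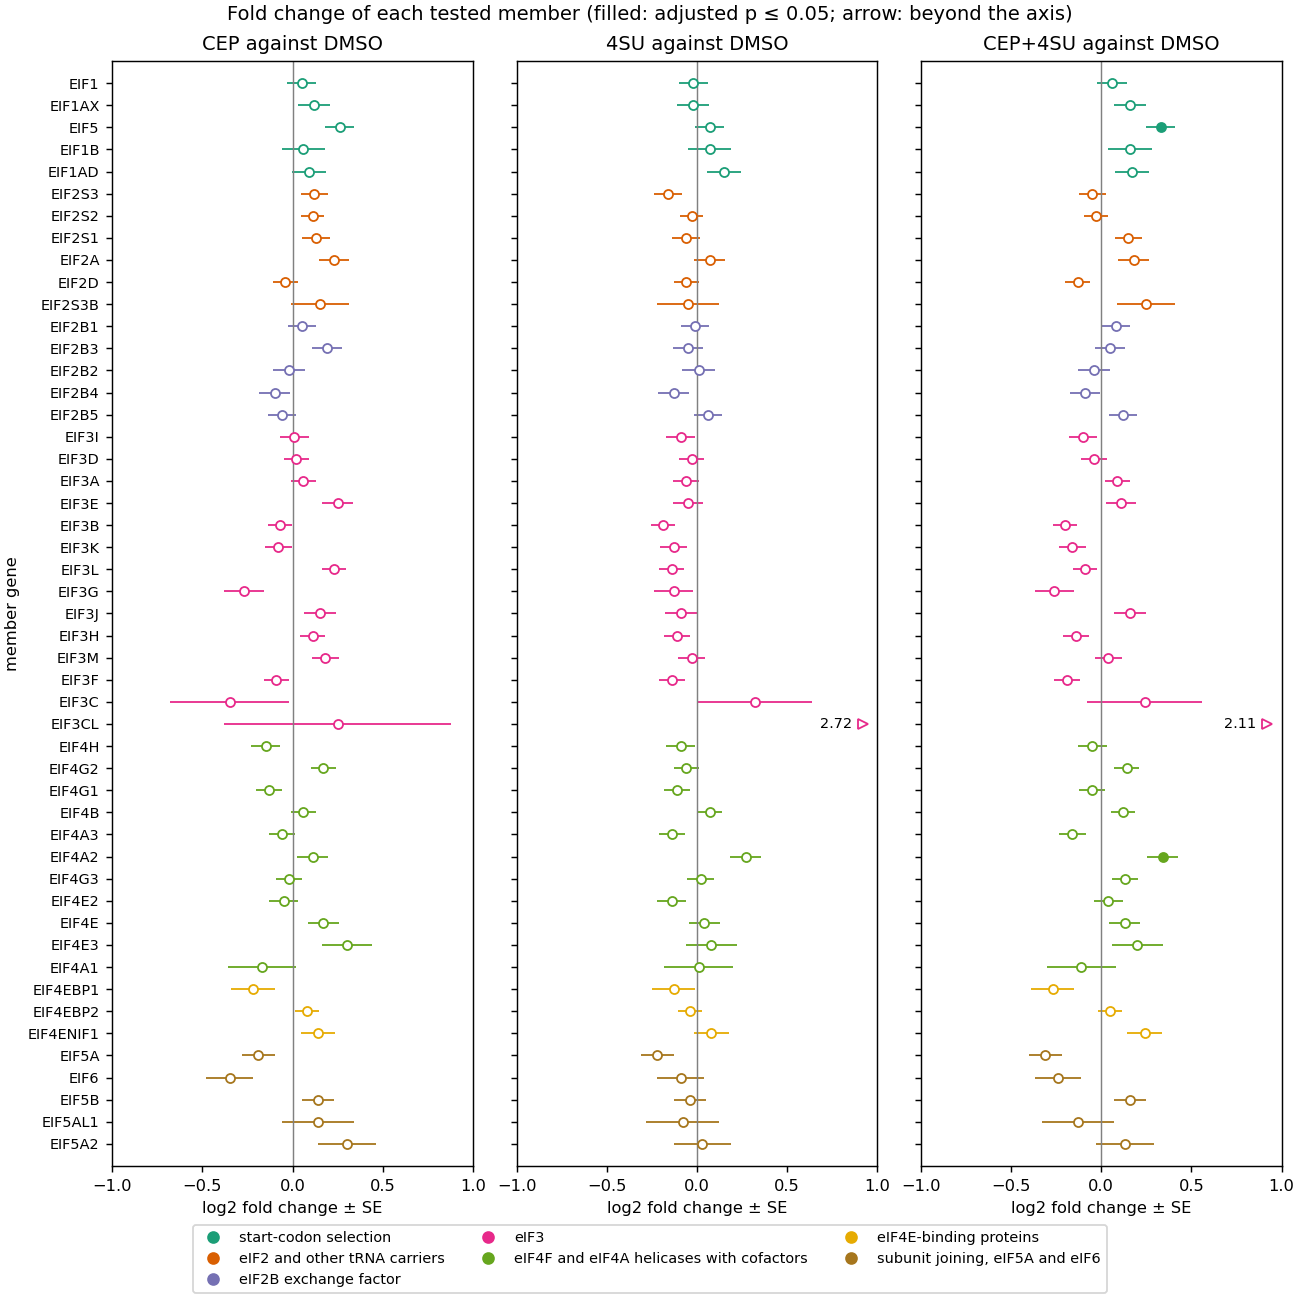
Log2 fold change with its SE for the 49 tested members in the 3 treated groups against the same 3 DMSO libraries, coloured by complex, with filled points at an adjusted p of 0.05 or less and arrows for EIF3CL, which lies beyond the axis at 2.72 with 4SU and 2.11 with both compounds. Filled points appear only for EIF5 (0.33) and EIF4A2 (0.34) with both compounds, and most eIF3 genes lie to the left of 0 with 4SU.

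All 4 groups were also used to estimate the effect of each compound averaged over the other, with 6 libraries on each side. For CEP, 0 of 49 members were called by edgeR, against 0.276% of all genes. At an unadjusted p under 0.05 there were 17 members (34.7%), 14 higher and 3 lower, against 24.3% of all genes. DESeq2 called 7 members (EIF2S1, EIF3E, EIF3J, EIF3L, EIF4G2, EIF5 and EIF6; 14.3%), and limma 0. Among all genes DESeq2 called 1499, which is 15.6% of the 9610 with an adjusted p. The median log2 value was 0.057 for the members and −0.006 for all genes, with 32 of 49 members above 0 (65.3%) against 48.9% of all genes.

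EIF5, EIF4G2 and EIF3E led this comparison. EIF5 had 351 to 438 CPM, with a median of 384, in the 6 libraries without CEP and 425 to 510, with a median of 465, in the 6 with it. The 2 sets overlapped only between 425 and 438 CPM, and the log2 value was 0.26 (SE 0.057, adjusted p = 0.0507, edgeR). The adjusted p was 0.017 without CEP replicate 1, 0.0496 without 4SU replicate 2 and 0.0315 without CEP+4SU replicate 1, and above the threshold without each other library.

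EIF4G2, whose product supports initiation that does not start from eIF4E, had 1090 to 1250 CPM with a median of 1220 without CEP and 1280 to 1460 with a median of 1340 with it. All 6 CEP libraries lay above the other 6, and the log2 value was 0.18 (SE 0.049, adjusted p = 0.0662, edgeR). EIF2S1, which encodes the eIF2 subunit that stress kinases phosphorylate, had 143 to 146 CPM in DMSO and 127 to 148 in 4SU, and 150 to 163 in CEP and 155 to 171 in CEP+4SU. These 2 were the only members whose libraries separated fully, against 1.21% of all genes in this direction and 0.513% in the other, where no member did. EIF3E had 437 to 481 CPM without CEP and 445 to 593 with it, a log2 value of 0.21 (SE 0.060, adjusted p = 0.0775, edgeR). EIF4G2 and EIF3E passed without CEP replicate 1 (adjusted p of 0.0241 and 0.0209) and without CEP+4SU replicate 1 (0.0385 and 0.0354). In all, 9 members were called without CEP replicate 1, against 11.8% of all genes, and 3 without CEP+4SU replicate 1, against 6.16%.

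The effect of 4SU averaged over CEP called 2 of 49 members (4.08%), against 0.558% of all genes, with EIF3L lower and EIF3CL higher. At an unadjusted p under 0.05 there were 10 members (20.4%), 3 higher and 7 lower, against 12.6% of all genes. DESeq2 called 5 members (EIF3B, EIF3CL, EIF3H, EIF3L and EIF4A2; 10.2%), against 336 of the 12946 genes with an adjusted p (2.60%), and limma 0. The log2 value of EIF5A was −0.17 with all 12 libraries (adjusted p = 0.258, edgeR), −0.22 without CEP replicate 2 (0.0485) and −0.19 without both libraries of few detected genes (0.0364). With those 2 left out, 3 members were called (EIF3CL, EIF3L and EIF5A), against 1.23% of all genes. The medians were −0.016 for the members and −0.002 for all genes. For no member did all 6 libraries with 4SU lie above the other 6, against 0.491% of all genes, or below them, against 0.863%.

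EIF3L (GRCh38, chr22:37848868-37889407, plus strand) had 232, 236 and 222 CPM in 4SU and 227, 235 and 248 in CEP+4SU, beside the 267, 248 and 244 in DMSO and 287, 305 and 296 in CEP given above. Within the CEP-treated groups all libraries with 4SU lay below those without, and the same held between 4SU and DMSO. Over all 12 libraries the 2 sets touched, since CEP+4SU replicate 3 exceeded DMSO replicate 3. EIF3L fell by 0.23 on the log2 scale (SE 0.048, adjusted p = 0.0345, edgeR), and the interaction of the compounds was −0.18 with an unadjusted p of 0.0711.

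The call for EIF3L was sensitive to the libraries. Without DMSO replicate 1, 2 or 3 the adjusted p was 0.143, 0.101 and 0.0832, without 4SU replicate 1, 2 or 3 it was 0.065, 0.110 and 0.168, without CEP replicate 2 it was 0.0518, and without CEP+4SU replicate 1 or 3 it was 0.0873 and 0.0656. The log2 value stayed between −0.24 and −0.21 in these fits. Of the exon bases of EIF3L, 51.8% are shared with other gene models, of which AL022311.1 on the same strand held 28 to 76 counts against 3998 to 6240 for EIF3L itself.

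EIF3CL (GRCh38, chr16:28379579-28403879, minus strand) had the largest value of any member, with a log2 value of 2.29 (SE 0.42, adjusted p = 0.0161, edgeR). The libraries did not share it evenly. It had 87.7, 36.0 and 8.71 CPM in 4SU and 43.4, 36.3 and 6.83 in CEP+4SU, against 6.64, 6.40 and 7.01 in DMSO and 8.04, 9.96 and 6.07 in CEP. Replicates 1 and 2 of both 4SU-treated groups were therefore high, and replicate 3 of both lay within the range of the libraries without 4SU. The adjusted p was 0.0825, 0.0648 and 0.0633 without DMSO replicate 1, 2 or 3 and 0.0612 without 4SU replicate 2.

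The near-identical copy EIF3C (GRCh38, chr16:28688558-28735730, plus strand) had 62.1, 26.2 and 56.0 CPM in 4SU and 78.8, 27.9 and 30.3 in CEP+4SU, and 22.1 to 48.0 in the 6 libraries without 4SU. EIF3CL made up 58.6%, 57.9%, 35.5% and 56.6% of the sum of the 2 copies in the 4 libraries where it was high, and 12.2% to 31.1% in the other 8. The sum was 150, 62.2, 122 and 64.2 CPM in those 4 libraries and 32.0 to 64.7 in the other 8. The 2 ranges of the sum overlapped, and how reads were divided between the copies was not tested.

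EIF4A2, the third by p-value for 4SU, had 221 to 281 CPM with a median of 231 in the 6 libraries with 4SU and 189 to 227 with a median of 199 without it. The sets overlapped through CEP replicate 3 at 227 CPM, and the log2 value was 0.25 (SE 0.060, adjusted p = 0.0671, edgeR). The interaction of CEP and 4SU called 0 of 49 members by edgeR, DESeq2 and limma, against 0.0% of all genes by edgeR, and 0 members had an unadjusted p under 0.05, against 2.63% of all genes. For EIF5 the interaction was 0.00 and for EIF4A2 −0.04.

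With 4SU the subunits of eIF3 shared a sign. Leaving aside the shared-read pair EIF3C and EIF3CL, all 12 other subunits had a negative log2 value for 4SU averaged over CEP, from −0.23 (EIF3L) to −0.02 (EIF3A) with a median of −0.10, where 49.3% of all genes were above 0. Among the 12 only EIF3L passed the test. Group means of TMM-scaled CPM were lower in 4SU than in DMSO for 12 of 12 subunits. They were lower in CEP+4SU than in CEP for 9 of 12, the exceptions being EIF3A, EIF3G and EIF3J. With libraries scaled by total count alone, 9 of 12 log2 values were negative for 4SU against DMSO. The count of 12 held in 20 of 24 other settings and was lowest, at 10, when libraries were scaled by total count alone. The summed level of all 14 subunits was 3710 to 3950 CPM in DMSO, 3880 to 3970 in CEP, 3530 to 3700 in 4SU and 3630 to 3730 in CEP+4SU.

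The 5 tested genes grouped under start-codon selection all had positive values with CEP averaged over 4SU, from 0.05 (EIF1AD) to 0.26 (EIF5), none past the threshold. This held in 21 of 24 other settings, again with the threshold of 0.5 included, and after removal of the trend with GC content 3 of 5 were positive. Of the 6 eIF2 and tRNA carrier genes, 5 were positive with CEP, with a median of 0.14, and EIF2D at −0.06 was the exception. The 5 eIF2B genes had a median of 0.0, from −0.04 (EIF2B2) to 0.15 (EIF2B3). The 11 tested genes of eIF4F, eIF4A helicases and cofactors ranged from −0.14 (EIF4A1, uncertain as described) to 0.21 (EIF4E3). The group with EIF5A and EIF6 ranged from −0.25 (EIF6) to 0.20 (EIF5A2).

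These CEP values ran along the GC content of the transcripts. GC content was taken from the longest annotated transcript of each gene. Across the 49 members, Pearson's r between it and the log2 value was −0.75 for CEP averaged over 4SU, beside −0.47 across 17718 genes. The members share the same libraries and are not independent. These values and the medians that follow include CEP replicate 2 and CEP+4SU replicate 2, the libraries of few detected genes. They were not computed without them. The 24 members of lower GC had a median of 0.13 and the 25 of higher GC a median of −0.04. For 4SU averaged over CEP r was 0.13 across the members and −0.08 across all genes. The members' r includes EIF3CL, at 2.29 where the other members ranged from −0.23 to 0.45. It was not computed without EIF3CL, so its sign is not interpreted. The medians for 4SU averaged over CEP were −0.02 in the members of lower GC and −0.01 in those of higher GC. With the trend of GC content removed from the counts, the log2 values with both compounds were 0.21 for EIF5 (adjusted p = 0.115, edgeR) and 0.17 for EIF4A2 (adjusted p = 0.174), neither past the threshold, and EIF3F and EIF3H were called in their place, against 1.26% of all genes. In that fit, 5 members were called for 4SU averaged over CEP (EIF2S3, EIF3CL, EIF3H, EIF3L and EIF4A2), against 3.41% of all genes.

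Values of members with and without a pyrimidine run at their annotated start are given as a description, with no test. For 4SU averaged over CEP the 10 with the run had a median log2 value of −0.06, from −0.16 (EIF2S3) to 0.25 (EIF4A2), and the 31 tested members with an entry and no run had a median of −0.01. For CEP averaged over 4SU the medians were 0.08 and 0.06. With both compounds, EIF4A2 (0.34) carries the run and EIF5 (0.33) does not.

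For pairs of paralogs, the ratio of counts within a library does not depend on how libraries are scaled. In 14 exact permutation tests, 7 pairs with each compound, none passed after Benjamini-Hochberg adjustment. The smallest p the design allows is 0.005, which for a lone ratio among 14 becomes an adjusted p of 0.07, so no ratio could have passed by itself. The smallest p was for EIF4G2 to EIF4G1 with CEP, where the mean log2 ratio was 0.31 ± 0.06 (SD, n = 6) without and 0.53 ± 0.15 with CEP, a difference of 0.22 (two-sided exact permutation p = 0.015, adjusted p = 0.210) that was 0.16 without the 2 libraries of few detected genes. The ratio of EIF4EBP2 to EIF4EBP1 differed by 0.27 with CEP (exact permutation p = 0.045, adjusted p = 0.257) and that of EIF5A2 to EIF5A by 0.34 (exact permutation p = 0.075, adjusted p = 0.257). Without the 2 libraries both differences were 0.11 (exact permutation p = 0.20 and 0.30). For CEP, EIF4A2 to EIF4A1 differed by 0.24, EIF4G3 to EIF4G1 by 0.08, EIF4E2 to EIF4E by −0.06 and EIF1B to EIF1 by 0.0. For 4SU, the 7 differences ranged from −0.03 to 0.2 with exact permutation p-values from 0.07 to 0.82.

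Genes that act beside the initiation factors were read from 5 lists. With CEP alone edgeR called 0 of their 45 tested genes, and 16 (35.6%) had an unadjusted p under 0.05 against 18.6% of all genes. DESeq2 called 1, against 2.63% of the genes with an adjusted p, the base of its shares in this paragraph. With 4SU alone edgeR and DESeq2 called 0, and 7 (15.6%) had an unadjusted p under 0.05 against 6.50% of all genes. With both compounds edgeR called 2, 16 (35.6%) had an unadjusted p under 0.05 against 21.4%, and DESeq2 called 8 against 10.6%. With CEP averaged over 4SU edgeR called 0, 19 (42.2%) had an unadjusted p under 0.05 against 24.3%, and DESeq2 called 11 against 15.6%. With 4SU averaged over CEP edgeR called 2, 13 (28.9%) had an unadjusted p under 0.05 against 12.6%, and DESeq2 called 4 against 2.60%. The interaction gave 0 by each of these, and limma called 0 in every comparison. Of 16 partners of the cap, the poly(A) tail and scanning, 1 fell with 4SU averaged over CEP. This was PABPC1, the main poly(A)-binding protein, which had 956, 914 and 910 CPM in 4SU and 963, 969 and 1060 in CEP+4SU against 1110, 1110 and 1050 in DMSO and 1200, 1270 and 1130 in CEP. It fell by 0.25 on the log2 scale (SE 0.047, adjusted p = 0.0178, edgeR), with only CEP+4SU replicate 3 reaching the range of DMSO. Its adjusted p lay between 0.0557 and 0.113 without any 1 of DMSO replicates 1 to 3, 4SU replicates 2 and 3 or CEP+4SU replicate 1.

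Of 6 eIF2 kinases and phosphatase subunits, EIF2AK2, the kinase PKR that senses double-stranded RNA, rose with both compounds. It had 117, 153 and 134 CPM against 95.2, 108 and 102 in DMSO, with a log2 fold change of 0.41 (SE 0.10, adjusted p = 0.0495, edgeR). It passed in 10 of 24 other settings. Its adjusted p was 0.074 without both libraries of few detected genes, 0.243 without CEP+4SU replicate 2, 0.101 without CEP+4SU replicate 3, 0.0598 without CEP replicate 3, above the threshold without any 1 DMSO library (at most 0.209) and 0.0568 to 0.0802 without any 1 4SU library. Of 8 tested elongation genes among 9 listed, 1 fell, EEF1A2, the tissue-restricted form of the elongation factor that delivers aminoacyl-tRNA. It had 294, 232 and 287 CPM in CEP+4SU against 406, 393 and 379 in DMSO and fell by 0.54 on the log2 scale (SE 0.087, adjusted p = 0.00852, edgeR), and by 0.32 with 4SU averaged over CEP (SE 0.062, adjusted p = 0.0232). The first was 0.0669 and 0.0556 without DMSO replicate 1 or 2, and the second was 0.0633 to 0.145 without DMSO replicate 1, 2 or 3 or 4SU replicate 2 or 3. None of 6 release and recycling genes or 9 mitochondrial translation factors was called by edgeR in any comparison. The smallest p-values with CEP averaged over 4SU were those of DENR (0.18), EIF2AK2 (0.18), EEF1D (−0.32), ABCE1 (0.17) and GFM1 (0.20), 1 in each list.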

How the data were processed

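RNA-seq was available from 12 HEK293T libraries in 4 groups of 3, grouped by the treatment and replicate number in the sample labels. Counts per gene come from the authors, whose processing notes name HISAT2 2.0.5, featureCounts 1.5.0-p3 and GRCh38, and are deposited as whole numbers without normalization. The strand setting of the counting is not given in the sources used here. FPKM values were made by the authors per library and served to compare levels between genes and in an alternative test. Their table of group means was not used, and no per-sample column was left unmapped.

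Members were the protein-coding genes with symbols EIF1 to EIF6, without EIF2AK, and all 52 had the same position in GENCODE 29. The members, complexes and 5 lists of related genes were chosen with earlier results of these data known. Genes were filtered with filterByExpr (minimum count 10, minimum total 15), scaled by TMM and fitted in edgeR 4.0.16 (R 4.3.3) over all 4 groups with 8 residual degrees of freedom. The quasi-likelihood test was adjusted by Benjamini-Hochberg over 17729 genes, and 0.05 was the threshold. On simulated data, 80% of 200 changed genes were recovered for CEP against DMSO with 8 false calls. The planted changes were all larger than any member's value in that comparison, where the members' median absolute log2 value was 0.126. The simulation therefore does not show how often changes of the members' size would be found. Paralog ratios used log2 counts with 0.5 added and exact permutation over 400 rearrangements of 1 compound's labels within the strata of the other. Genes named in the text were those called, the 3 smallest p-values of each comparison, both members of the 7 pairs, the highest and lowest FPKM in each complex, the untested members, and, of the related lists, those called or with the smallest p for CEP averaged over 4SU. Further members were named after their values were seen, to give ranges and exceptions within complexes. Alternatives used DESeq2 1.42.0 and limma 3.58.1 on log2(FPKM + 1) or log2(FPKM + 0.1), other scalings and filters, GC and length trends, a replicate block, the 6 libraries of a comparison alone, and each library left out. The depth of 16569114 to 24644734 counts per library limits precision for counting error only.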

Additional observations from a re-analysis of the deposited data

How the results depend on the processing

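The number of members past the threshold depended on the processing, and the share of all genes moved with it. In this paragraph each count of members is followed by that share, which with DESeq2 is of the genes with an adjusted p. With CEP it was 0 (0.0564%) and became 1 with DESeq2 (2.63%), 1 without a low-count filter (1.86%), 25 at a threshold of 0.5, the one named in the study's methods (44.4%), and 0 to 4 with each library left out (0.0219% to 6.61%). With 4SU it was 0 (0.00564%) and became 1 without a filter (0.115%), 2 with only the 6 libraries compared (0.557%), 1 without the 2 libraries of few detected genes (0.138%) and 1 at 0.5 (0.107%). With both it was 2 (1.64%) and became 4 with DESeq2 (10.6%), 1 with upper-quartile scaling (1.76%), 4 without a filter (3.46%), 0 with limma on log2(FPKM + 1) (0.118%) and 0 on log2(FPKM + 0.1) (0.135%), 4 with only the 6 libraries (3.36%), 0 without the 2 libraries (0.863%), 32 at 0.5 (47.0%) and 0 to 3 with each library left out (0.0766% to 4.42%). For CEP averaged it was 0 (0.276%) and became 7 with DESeq2 (15.6%), 5 without a filter (4.06%), 29 at 0.5 (52.3%) and 0 to 9 with each library left out (0.115% to 11.8%). For 4SU averaged it was 2 (0.558%) and became 5 with DESeq2 (2.60%), 1 with upper-quartile scaling (0.451%), 4 without a filter (0.873%), 0 with the limma fits (0.164% and 0.147%), 5 without the GC trend (3.41%), 3 without the length trend (0.784%), 3 without the 2 libraries (1.23%), 15 at 0.5 (20.5%) and 0 to 2 with each library left out (0.0328% to 0.687%). Scaling by total count kept it at 2 (0.400%), with EIF4A2 in place of EIF3L. The interaction went from 0 (0.0%) to 1 without a filter (0.0421%). The cause was not tested. Leaving out the 2 libraries was chosen after seeing the data.

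Deviations of libraries with the same replicate number correlated at −0.047 to 0.141, and those with different numbers at −0.158 to 0.055. The highest values were between CEP and CEP+4SU replicates 1 (0.141) and between CEP and 4SU replicates 1 (0.089). The lowest same-number value was between CEP and CEP+4SU replicates 3. These values do not settle whether the numbers mark shared cultures. Neither labels nor methods say that they do, so the main fit left the numbers out. With a replicate block the counts, and the shares of all genes, were 3 and 4.40% (CEP), 1 and 0.0451% (4SU), 6 and 9.40% (both), 10 and 12.8% (CEP averaged), 3 and 1.90% (4SU averaged) and 0 and 0.0% (interaction).

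Paralog ratios near 0 changed sign with 1 library left out. With 4SU, EIF4G2 to EIF4G1 ranged from −0.08 to 0.02, EIF4E2 to EIF4E from −0.06 to 0.01 and EIF4EBP2 to EIF4EBP1 from −0.03 to 0.16, and with CEP EIF1B to EIF1 ranged from −0.03 to 0.04. Of the members called or among the 3 smallest p-values of a comparison, none reversed there in any setting. Of the 12 eIF3 subunits with 4SU averaged over CEP, 2 turned positive when libraries were scaled by total count alone, and of the 5 start-codon genes with CEP averaged over 4SU, 2 turned negative without the GC trend.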
